A study of Mus musculus with 15 samples.

Results

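The genes of the LIF and Stat3 pathway followed here are Lifr, Il6st, Jak1, Stat3, Socs3, Pim1, Pim3, Gbx2 and Bcl3. They were found by symbol in the expression table of every library, and all 9 were present among the 55228 genes listed. Leukemia inhibitory factor (LIF) is the cytokine that keeps mouse embryonic stem cells (ESC) undifferentiated in serum culture. It binds a receptor made of Lifr and the shared signalling chain gp130, which Il6st encodes. The kinase Jak1, attached to gp130, phosphorylates Stat3, which then enters the nucleus and activates genes. Socs3 is one of these genes and feeds back to block the receptor, while Pim1, Pim3, Gbx2 and Bcl3 are reported Stat3 targets in ESC: Pim1 and Pim3 are serine/threonine kinases, Gbx2 is a homeobox factor and Bcl3 is a coregulator of NF-κB.

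RNA-seq had been performed on the mouse ESC line 81K1, a single clone derived from the line OG2 that carries an shRNA against Smarcb1 in the Rosa26 locus under a doxycycline-dependent promoter. Its target Smarcb1 belongs to the BAF complex, which remodels chromatin. The 5 groups of 3 libraries are untreated cells (ctrl) of 48 h and of 240 h and cells given doxycycline (kd) for 48 h, for 72 h and for 240 h. All cells, untreated ones included, were 81K1 and were cultured on gelatine with LIF in the medium, at 5 µg per 500 ml, so the receptor's ligand was supplied from outside in every group. No line that lacks the shRNA and received doxycycline was among these samples, so doxycycline and the loss of Smarcb1 cannot be told apart. The 72 h kd cells had no control of their own time and were set against the 48 h ctrl, so that the 48 h and 72 h comparisons share their control libraries. The labels do not say whether libraries of one group came from separate cultures, and the p-values then measure the spread between these libraries, which may be technical.

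The libraries held 11074998 to 14515300 reads. Smarcb1 was at 3.31 to 3.93 FPKM (reads scaled to gene length and library total) in the 6 ctrl libraries and at 0.503 to 0.82 FPKM in the 9 kd libraries. The summed level of 6 ESC markers (Pou5f1, Nanog, Sox2, Zfp42, Esrrb and Utf1) was 870 FPKM or more in every library, most of it from Pou5f1, Sox2 and Utf1. At 240 h Esrrb was at 5.11 FPKM on average in ctrl and 2.94 FPKM in kd, and Zfp42 at 49.5 and 33 FPKM, and both were called lower. The summed level of 5 neural progenitor markers moved with the kd, from 7.42 to 8.62 FPKM over the ctrl libraries to 13 to 14.8 FPKM at 48 h, 17 to 18.8 FPKM at 72 h and 19.6 to 20.9 FPKM at 240 h, with Zic1 and Olig2 below 0.1 FPKM in the kd groups. Sox1 made up most of this sum in the kd groups, with means of 4.69 FPKM in 48 h ctrl, 11.7 FPKM in 48 h kd, 15.8 FPKM in 72 h kd, 5.23 FPKM in 240 h ctrl and 15.5 FPKM in 240 h kd. Pax6 and Nes had lower means than the 48 h ctrl in 48 h kd (0.144 against 0.4 FPKM and 2.09 against 2.86 FPKM) and in 72 h kd (0.117 and 2.02 FPKM). In 240 h kd their means were higher than in 240 h ctrl, at 0.339 against 0.282 FPKM for Pax6, where the libraries overlapped, and at 4.32 against 2.74 FPKM for Nes, where they did not. The 5 trophoblast markers together reached 1.21 to 1.39 FPKM in 240 h kd and at most 0.295 FPKM elsewhere. The sums of the primitive endoderm, mesoderm and fibroblast markers did not pass 1.58 FPKM in any library. In each comparison of kd with ctrl below, the ranges of the ESC sum overlapped, and those of the neural progenitor and primitive endoderm sums did not. The mesoderm sum overlapped at 48 h and at 240 h, and the fibroblast sum, at 1.37 to 1.58 FPKM in 240 h kd and 0.859 to 0.974 FPKM in 240 h ctrl, overlapped at 48 h alone. The part of the sums that did not overlap in the differences below was not tested. In bulk RNA, fewer cells of a type and less RNA per cell cannot be told apart. The library 48 h kd replicate 2 had 2.35% mitochondrial reads, the highest of the 15.

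To set levels of different genes side by side, FPKM was taken per kilobase of exon. Reads in introns are still counted on this scale and raise intron-rich genes by an unknown amount, since the gene span is 15.6 times the exon length for Jak1, 9.92 times for Lifr and 1.37 times for Socs3, so the order is a description of these values. The reported targets stood above the receptor chains and the kinase in the 48 h ctrl libraries. Pim3 was highest at 95.5 to 107, followed by Socs3 at 76.1 ± 2.2 (SD, n = 3). Pim1 at 40.0 ± 1.35 and Gbx2 at 39.8 ± 1.37 overlapped. Bcl3 followed at 23.3 ± 0.54, Stat3 at 12.6 ± 0.141 and Il6st at 11.6 ± 0.353, and none of these 3 overlapped its neighbours. Jak1 at 9.86 ± 0.44 and Lifr at 9.81 ± 0.538 were lowest and overlapped. In 240 h kd, Pim1 was at 61.2 on this scale, Socs3 at 56.5 and Pim3 at 54.2. The place of Pim1, Gbx2 and Bcl3 in the order depends on reads they share with overlapping genes. With all reads of those genes taken away, Pim1 was at 28 ± 1.23, Gbx2 at 23.9 ± 1.07 and Bcl3 at 16.3 ± 0.413 in 48 h ctrl, and Pim1 at 42.2 ± 1.25 in 240 h kd, below Socs3 and Pim3. These are lower limits, since the genes that overlap Pim1 and Gbx2 reach beyond them. All values below are FPKM per gene span, introns included, as deposited, and are compared for 1 gene at a time. For the 9 genes they rest on 646 (Bcl3) to 5130 (Pim1) reads a library.

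**Figure D1:**
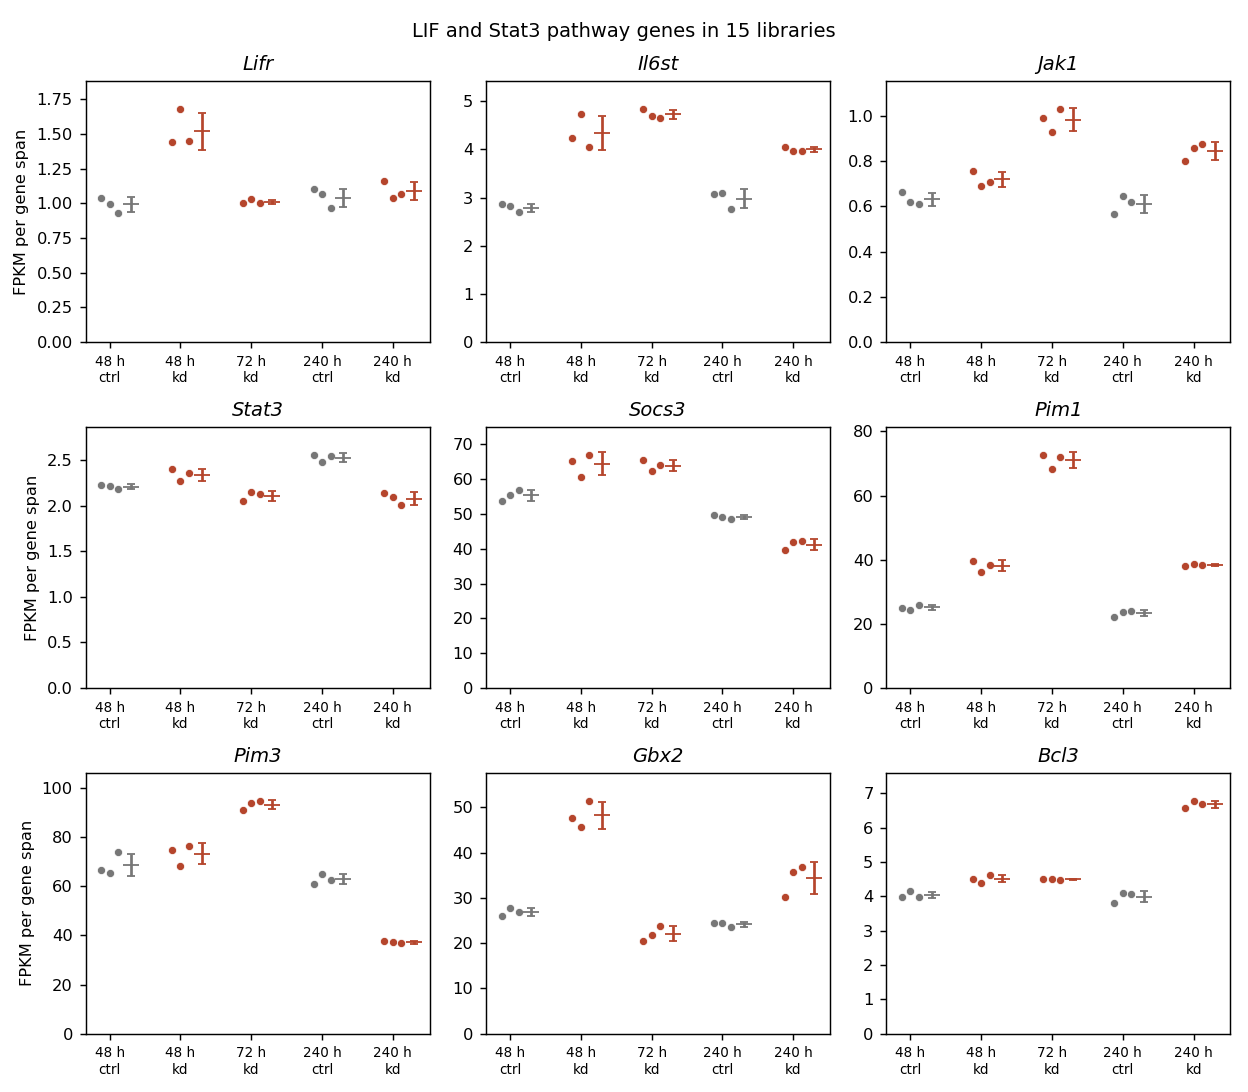
Level of each of the 9 genes in every library. The y axes give FPKM per gene span from 0, each panel with its own scale; points are the 3 libraries of a group (grey: ctrl, red: kd) and the bar beside them is the mean ± SD. Pim1 peaks at 72 h kd (68.3 to 72.7 FPKM), Gbx2 is high at 48 h kd (45.6 to 51.5 FPKM) and below every 48 h ctrl library at 72 h kd, and at 240 h kd Pim3 is low (36.7 to 37.8 FPKM) while Bcl3 is high (6.58 to 6.79 FPKM).

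Stat3 dimers bind a palindromic DNA element, and RefSeq promoter windows (250 bases before to 50 bases after a start site, build GRCm38.p6) were available for all 9 genes, 11 windows in all. Not every window lies at the 5′ end of the gene span in the files: the RefSeq start of Socs3 is 681 bases inside it and those of Lifr 38958 and 49928 bases inside it, and the second start of Pim1 is 2332 bases inside it. The element TTCNNNGAA, searched on both strands, was found in 1 of the 11 windows, that of Socs3, and in 8.3% of all 32851 windows. The narrower form TTCCNGGAA, which is contained in the first, was in none of the 11 and in 1.15% of all windows. The 30 bases around the Socs3 element (chr11:117969501-117969530, minus strand, within the gene span but outside the exons of the annotated Socs3 transcripts) are shown with the element in capitals, because it is the only match. The bases before the first exons of Pim1 (chr17:29490535-29490752, plus strand) and Pim3 (chr15:88861944-88862185, plus strand) are shown because these related kinases were called in opposite directions at 240 h. Neither holds the element.
Socs3: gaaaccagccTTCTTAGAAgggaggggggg
Pim1: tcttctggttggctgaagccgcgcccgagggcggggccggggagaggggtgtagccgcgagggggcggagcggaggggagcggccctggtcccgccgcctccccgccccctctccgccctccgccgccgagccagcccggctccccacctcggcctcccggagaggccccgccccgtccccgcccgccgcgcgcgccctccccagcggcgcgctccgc
Pim3: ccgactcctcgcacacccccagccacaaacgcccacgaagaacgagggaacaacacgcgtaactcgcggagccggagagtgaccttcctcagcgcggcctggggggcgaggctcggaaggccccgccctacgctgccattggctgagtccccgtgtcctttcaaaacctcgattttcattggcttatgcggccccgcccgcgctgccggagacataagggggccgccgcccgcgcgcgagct
The stretch of Pim1 is 83% G and C and that of Pim3 67.4%. A match is a description of the letters in these windows.

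To see how the pathway's transcripts stood after the loss of Smarcb1, each kd group was compared with ctrl. A gene was called when limma gave an adjusted p under 0.05 over all genes tested and an absolute log2 fold change above 0.58, taken on log2(FPKM + 0.1). At 48 h, 3 of the 9 genes were called higher (Gbx2, Il6st and Pim1), against 1.99% of the 11420 genes tested, and none was called lower, against 2.01%. The kd and ctrl libraries did not overlap for 8 of the 9 genes, all but Pim3, against 39.4% of all genes, and the adjusted p alone was passed by 6 of the 9, against 16.1%. At 72 h, Il6st and Pim1 were called higher (8.23% of the 11440 genes tested) and none lower (5.3%). Here 8 of the 9, all but Lifr, did not overlap (64.7% of all genes) and 7 passed the adjusted p alone (55%). At 240 h, Pim1 and Bcl3 were called higher (4.79% of the 11401 genes tested) and Pim3 lower (4.12%). Again 8 of the 9, all but Lifr, did not overlap (50.2% of all genes), and these 8 passed the adjusted p alone (33.8%). The median log2 fold change of the 9 genes was 0.215 at 48 h, 0.205 at 72 h and 0.411 at 240 h, beside 0.00567, 0.00903 and -0.00163 over all genes tested. Of the 9, Pim1 alone was called in each of these comparisons.

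**Figure D2:**
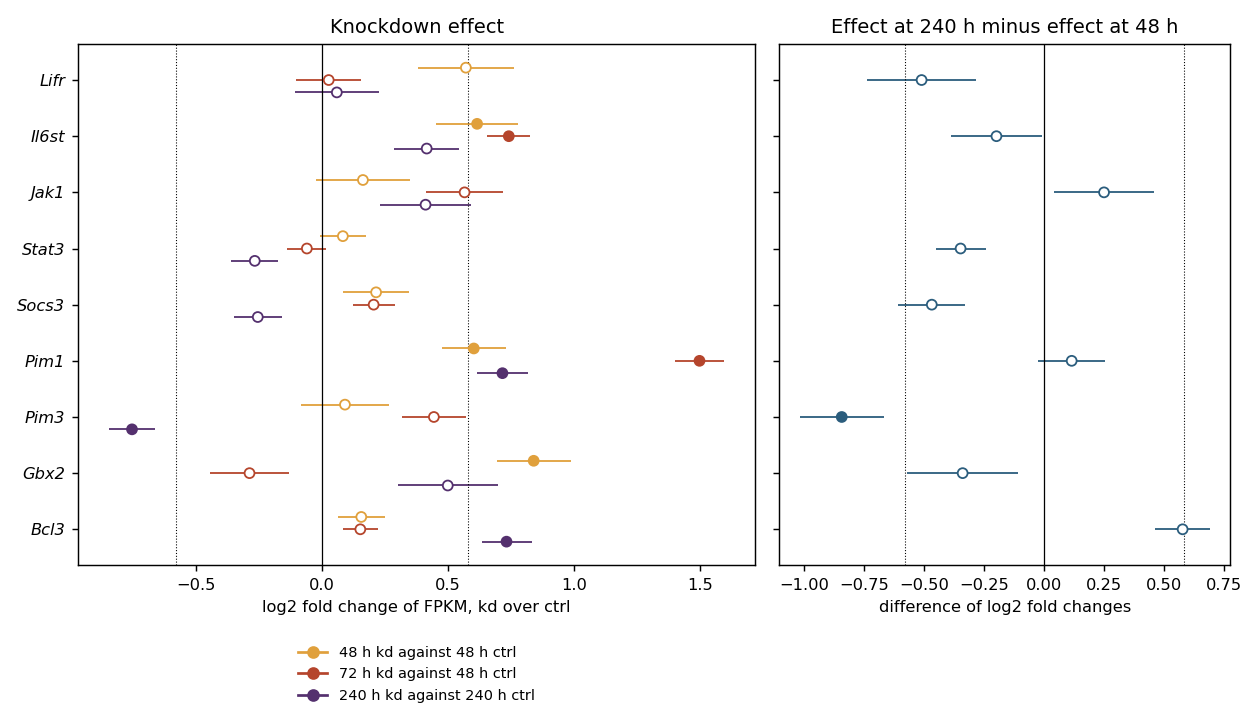
Left, log2 fold change of FPKM for the 9 genes in the 3 comparisons of kd with ctrl (colours), and right, the effect at 240 h minus the effect at 48 h. Lines are 95% confidence intervals from limma, filled points passed the adjusted p and the fold threshold, and dotted lines mark that threshold at -0.58 and 0.58. Pim1 lies to the right of the threshold in each comparison, while Pim3 moves from 0.09 at 48 h to -0.75 at 240 h.

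Of the receptor chains, Il6st lay above ctrl in every kd group and Lifr in 48 h kd alone. They were not tested against each other. Il6st (chr13:112464070-112510086, plus strand, build GRCm38) was at 2.86, 2.82 and 2.7 FPKM in the 48 h ctrl libraries and at 4.23, 4.73 and 4.06 FPKM in 48 h kd. It was at 4.84, 4.7 and 4.65 FPKM in 72 h kd, and at 240 h it was at 3.08, 3.09 and 2.76 FPKM in ctrl and 4.05, 3.97 and 3.97 FPKM in kd. Each kd library was therefore above every ctrl library. On the log2 scale Il6st rose by 0.62 at 48 h (SE 0.065, adjusted p = 0.00437). It rose by 0.74 at 72 h (SE 0.0343, adjusted p = 6.5e-05). The 240 h difference was 0.42 (SE 0.052, adjusted p = 0.00277), under the fold threshold. The 48 h call was lost without the library 48 h kd replicate 2, which was the highest of its group (log2 fold change 0.55, adjusted p = 0.00644), and under TPM scaling, which sets every library to the same FPKM sum (0.57), and with a pseudocount of 1 (0.49).

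Lifr (chr15:7090614-7197489, plus strand) was at 1.04, 0.999 and 0.934 FPKM in 48 h ctrl and at 1.44, 1.68 and 1.45 FPKM in 48 h kd. In 72 h kd it was at 1, 1.03 and 1 FPKM, within the range of the 48 h ctrl. At 240 h, ctrl was at 1.1, 1.07 and 0.969 FPKM and kd at 1.16, 1.04 and 1.07 FPKM, and the groups overlapped. The high level was thus seen in the 48 h kd libraries and not in the later kd libraries. The 48 h difference was 0.57 (SE 0.0764, adjusted p = 0.00833), just under the fold threshold, and it passed with a pseudocount of 0.01 (0.61), with voom on the recovered reads (0.62) and when 48 h ctrl replicate 1, 48 h kd replicate 1 or 48 h kd replicate 3 was left out (0.60 to 0.61). It was 0.34 with a pseudocount of 1 and 0.50 without 48 h kd replicate 2, the highest of its group. Later differences were 0.03 at 72 h (95% confidence interval -0.10 to 0.16) and 0.06 at 240 h (-0.11 to 0.23).

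Jak1 (chr4:101152367-101265282, minus strand), the kinase on gp130, was at 0.664, 0.619 and 0.612 FPKM in 48 h ctrl, 0.756, 0.692 and 0.708 FPKM in 48 h kd and 0.989, 0.93 and 1.03 FPKM in 72 h kd. At 240 h it was at 0.568, 0.647 and 0.618 FPKM in ctrl and 0.8, 0.858 and 0.876 FPKM in kd. The kd libraries lay above their ctrl libraries each time, by most at 72 h. Their log2 difference from ctrl was 0.16 at 48 h (adjusted p = 0.203). It was 0.57 at 72 h, with an SE of 0.0617 and an adjusted p of 0.00087, and 0.41 at 240 h, with an SE of 0.0731 and an adjusted p of 0.00957. Jak1 was thus not called at any time. The 72 h value passed the fold threshold with voom (0.64), with the 240 h ctrl as control (0.61), with a pseudocount of 0.01 (0.63), under TPM scaling (0.59) and when 48 h ctrl replicate 1 or 72 h kd replicate 2 was left out (both 0.60). With a pseudocount of 1 it was 0.28.

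Stat3 (chr11:100885098-100939540, minus strand), the transcription factor itself, stayed within a narrow range. It was at 2.23, 2.22 and 2.18 FPKM in 48 h ctrl, 2.4, 2.27 and 2.36 FPKM in 48 h kd and 2.05, 2.15 and 2.13 FPKM in 72 h kd. In the 240 h libraries it was at 2.56, 2.48 and 2.55 FPKM in ctrl and 2.14, 2.1 and 2.01 FPKM in kd. The groups did not overlap in any of these 3 comparisons, but the gaps were small. Stat3 differed from ctrl by 0.08 on the log2 scale at 48 h (adjusted p = 0.188), by -0.06 at 72 h (adjusted p = 0.154) and by -0.27 at 240 h (SE 0.0373, adjusted p = 0.00412), and none passed the fold threshold. Against the 240 h ctrl the 72 h difference was -0.25 (adjusted p = 0.00202). The ctrl level was itself higher at 240 h than at 48 h, by 0.19 (SE 0.0321, adjusted p = 0.046, under the fold threshold), and the 240 h kd libraries were below the 48 h ctrl libraries too.

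Socs3 (chr11:117966079-117970047, minus strand), the feedback inhibitor, was above ctrl at the early times and below it at the late one. It was at 53.8, 55.4 and 57 FPKM in 48 h ctrl, 65.3, 60.7 and 67 FPKM in 48 h kd and 65.4, 62.3 and 64 FPKM in 72 h kd. At 240 h, ctrl was at 49.8, 49 and 48.5 FPKM and kd at 39.5, 42 and 42.1 FPKM, the lowest of the 15 libraries. The log2 difference from ctrl was 0.21 at 48 h, with an SE of 0.0534 and an adjusted p of 0.0486. It was 0.20 at 72 h, with an SE of 0.0336 and an adjusted p of 0.00395, and -0.25 at 240 h, with an SE of 0.038 and an adjusted p of 0.00514. Against the 240 h ctrl the 72 h difference was 0.38 (adjusted p = 0.000395). All of these were under the fold threshold, and Socs3 was not called against ctrl at any time.

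Pim1 (chr17:29490753-29496112, plus strand) rose at every time. It was at 25, 24.3 and 26 FPKM in 48 h ctrl, 39.7, 36.3 and 38.4 FPKM in 48 h kd and 72.7, 68.3 and 72.1 FPKM in 72 h kd. In the 240 h libraries it was at 22.2, 23.8 and 24.1 FPKM in ctrl and 38.1, 38.8 and 38.3 FPKM in kd. The 72 h kd libraries were above all others, and their mean was 2.83 times that of the 48 h ctrl. Its rise on the log2 scale was 0.60 at 48 h, with an SE of 0.0508 and an adjusted p of 0.0028. The 72 h rise of 1.50 had an SE of 0.0398 and an adjusted p of 2.0e-05. The difference was 0.72 at 240 h, with an SE of 0.0404 and an adjusted p of 0.000193. The 48 h call rests close to the threshold and was lost under TPM scaling (0.56), without 48 h ctrl replicate 2 (0.58, adjusted p = 0.0212) and without 48 h kd replicate 1 (0.57, adjusted p = 0.013). The antisense gene Gm26885 shares 1173 bases of span with Pim1, and reads there count for both, since strand was not used. With all reads of Gm26885 taken away, the Pim1 ratios of kd to ctrl were 1.52, 2.8 and 1.71 at 48 h, 72 h and 240 h, and the calls stood. Gm26885 reaches beyond Pim1, so this also takes away reads from outside Pim1 and leaves lower limits of its level.

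Pim3 (chr15:88862186-88865726, plus strand), of the same kinase family, went the other way at 240 h. It was at 66.6, 65.5 and 73.7 FPKM in 48 h ctrl and 74.6, 68.2 and 76.3 FPKM in 48 h kd, where the groups overlapped (log2 fold change 0.09, 95% confidence interval -0.08 to 0.26). In 72 h kd it was at 91.1, 93.7 and 94.8 FPKM, above all other libraries, with a log2 fold change of 0.44 (SE 0.0516, adjusted p = 0.0011), under the fold threshold. At 240 h, ctrl was at 60.8, 65 and 62.7 FPKM and kd at 37.8, 37.2 and 36.7 FPKM, so that the kd mean was 59.2% of the ctrl mean. Pim3 fell by 0.75 on the log2 scale (SE 0.037, adjusted p = 0.00013), and this call stood under each of the 18 alternatives run. Among these, dropping the fold threshold could only keep the call, and taking away overlapping reads left Pim3 as it was. No other listed gene overlaps Pim3.

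Gbx2 (chr1:89927956-89931179, minus strand) was above ctrl at 48 h and at 240 h, and not at 72 h. It was at 25.9, 27.8 and 27 FPKM in 48 h ctrl, 47.7, 45.6 and 51.5 FPKM in 48 h kd and 20.5, 21.8 and 23.9 FPKM in 72 h kd. At 240 h, ctrl was at 24.4, 24.5 and 23.5 FPKM and kd at 30.3, 35.7 and 36.9 FPKM. It rose by 0.84 on the log2 scale at 48 h (SE 0.0593, adjusted p = 0.00179), the largest of the 9 genes at that time and a call that stood under each of the 18 alternatives run. Among these, dropping the fold threshold could only keep the call. The difference was -0.29 at 72 h, with an SE of 0.0631 and an adjusted p of 0.0115, and 0.50 at 240 h, with an SE of 0.0801 and an adjusted p of 0.00665. The 72 h difference depends on the control, since the 72 h kd libraries overlapped those of the 240 h ctrl, against which it was -0.13 (adjusted p = 0.117). The 72 h and 240 h values are under the fold threshold, which the 240 h value passed without 240 h kd replicate 1, the lowest of its group (0.59, adjusted p = 0.00208). The noncoding gene D130058E05Rik, on the other strand, shares 946 bases with Gbx2. With all its reads taken away, the ratios of kd to ctrl were 1.86, 0.713 and 1.54, and the 240 h difference was then past the fold threshold (0.62, adjusted p = 0.00239). D130058E05Rik reaches beyond Gbx2, so this also takes away reads from outside Gbx2 and leaves lower limits of its level.

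Bcl3 (chr7:19808462-19822770, minus strand) was called at 240 h. It was at 3.98, 4.15 and 3.99 FPKM in 48 h ctrl, 4.52, 4.4 and 4.61 FPKM in 48 h kd and 4.51, 4.5 and 4.49 FPKM in 72 h kd. The 240 h libraries were at 3.8, 4.1 and 4.07 FPKM in ctrl and 6.58, 6.79 and 6.7 FPKM in kd, where the kd mean was 1.68 times the ctrl mean. The log2 fold change was 0.16 at 48 h, with an SE of 0.0377 and an adjusted p of 0.0455, and 0.15 at 72 h, with an SE of 0.0279 and an adjusted p of 0.00598. Both are under the fold threshold. At 240 h Bcl3 rose by 0.73 (SE 0.04, adjusted p = 0.000178), which passed under each of the 18 alternatives run. Among these, dropping the fold threshold could only keep the call. The antisense genes Gm16175 and Gm16174 lie within its span and share 4337 bases with it. The ratio at 240 h was 1.65 with their reads taken away.

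Between the ctrl groups, where time in culture differed and the shRNA was not induced, none of the 9 genes was called at 240 h against 48 h by limma, against 0.475% of the 11359 genes tested. That share is 54 genes and rests on all 6 libraries, since 2 to 10 genes were called when 1 of them was left out. At an unadjusted p under 0.05 there were 3 of the 9 (Gbx2, Stat3 and Socs3), against 26.5% of all genes, and voom on the recovered reads called 0. The libraries did not overlap for 5 of the 9, against 33.6% of all genes, and the adjusted p alone was passed by 1 of the 9 (Stat3), against 3.44%. The log2 differences of the 9 genes ran from -0.17 (Socs3) to 0.19 (Stat3).

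Among the kd groups, where the control libraries do not enter, 72 h kd was compared with 48 h kd. Pim1 rose by a further 0.90 on the log2 scale (SE 0.0508, adjusted p = 0.000768), as 1 of 9 genes against 4.17% of the 11500 genes tested. Gbx2 fell by 1.13 (SE 0.0758, adjusted p = 0.00101), again 1 of 9, against 3.29% of all genes, so that the 72 h kd mean was 45.7% of the 48 h kd mean. Lifr was 0.54 lower (SE 0.068, adjusted p = 0.0037), under the fold threshold. The adjusted p alone was passed by 6 of the 9, against 35.5% of all genes. Under TPM scaling, 632 genes were called higher and 307 lower in this comparison, beside 479 and 378 with the values as deposited, and Pim1 and Gbx2 were called in both.

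From 72 h kd to 240 h kd, 3 genes fell and 1 rose. Pim3 fell by 1.32 on the log2 scale (SE 0.0255, adjusted p = 1.1e-05), to 39.9% of its 72 h mean. Pim1 fell by 0.89 (SE 0.0309, adjusted p = 3.6e-05) to a level that still lay above every ctrl library, and Socs3 fell by 0.63 (SE 0.0356, adjusted p = 9.2e-05). These are 3 of 9 genes, against 9.29% of the 11463 genes tested. Gbx2 rose by 0.63 (SE 0.0942, adjusted p = 0.00235), 1 of 9 against 6.44%, a call lost without 240 h kd replicate 3 (0.58, adjusted p = 0.00919). The Socs3 call was lost under TPM scaling (-0.55), where 967 genes were called higher and 822 lower, beside 738 and 1065 with the values as deposited. Bcl3 was 0.56 higher (SE 0.0239, adjusted p = 4.8e-05), under the fold threshold, which it passed under TPM scaling (0.64) and quantile normalization (0.60). Of the 9 genes, 7 passed the adjusted p alone, against 59.5% of all genes.

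Whether the kd effect itself differed between 240 h and 48 h, each against its own ctrl, was tested with an interaction term. Pim3 was called, 1 of 9 genes against 5.82% of the 11412 genes tested. Its effect was 0.84 lower at 240 h (log2 difference -0.84, SE 0.0785, adjusted p = 9.9e-05). The adjusted p alone was passed by 5 of the 9, against 15.6%. Besides Pim3 these were Bcl3 (difference 0.58, SE 0.0509, adjusted p = 7.6e-05), Lifr (-0.51, SE 0.102, adjusted p = 0.00838), Socs3 (-0.47, SE 0.0622, adjusted p = 0.00089) and Stat3 (-0.35, SE 0.0465, adjusted p = 0.000903). Bcl3 lies just under the fold threshold. For Pim1 the effect at 240 h differed from that at 48 h by 0.11 (95% confidence interval -0.03 to 0.25), and for Il6st, Jak1 and Gbx2 the adjusted p was 0.149, 0.105 and 0.0515.

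Beside the 9 genes, 56 further genes of the pathway were followed, of which 36 to 38 were expressed highly enough to be tested. Of 36 genes at 48 h, 2 were called higher, against 1.99% of all genes tested, and 2 lower, against 2.01%. At 72 h and 240 h, genes that reached the minimum of 0.5 FPKM through 1 of the compared groups alone (Lif, and at 72 h also Socs5) are left out of the counts, because their entry depends on the difference itself, while the shares over all genes include such genes. Of the 36 others at 72 h, 3 were called higher, against 8.23% of all genes, and 3 lower, against 5.3%. Of the 36 others at 240 h, 2 were called higher, against 4.79%, and 4 lower, against 4.12%. Their median log2 fold change was -0.0786, -0.0681 and -0.00416. Each of the 9 genes averaged over the minimum in every compared group. Some of these genes rest on few reads, with 55 to 200 reads a library for Lif, 26 to 122 for Fos and 41 to 76 for Ier3. Other counted genes overlap the spans of Stat6, Pias3, Cish, Ptpn6 and Ccnd1. Reads there can count for both, and they were not taken away. Of the 8 ligands listed, Il6, Il11, Osm, Clcf1 and Il27 were below 0.3 FPKM in every library. Lif itself was at 0.444, 0.458 and 0.325 FPKM in 48 h ctrl and 0.441, 0.502 and 0.567 FPKM in 48 h kd, under the minimum. In 72 h kd it was at 1.04, 0.953 and 0.952 FPKM, and at 240 h at 0.414, 0.413 and 0.371 FPKM in ctrl and 0.999, 0.843 and 0.962 FPKM in kd. The kd mean was 2.4 times the ctrl mean at 72 h and 2.34 times at 240 h. Lif passed the FPKM minimum there only through the kd groups, so these values are given as a description. In voom on the recovered reads, whose minimum of 10 reads Lif passed in every library, the log2 fold change was 0.30 at 48 h (adjusted p = 0.201), 1.27 at 72 h (adjusted p = 7.9e-09) and 1.22 at 240 h (adjusted p = 3.1e-07).

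None of the other receptor chains and none of the other kinases and adapters was called in a comparison of kd with ctrl. Of the 5 other receptors only 1 was expressed highly enough to be tested, and of the 8 kinases and adapters 7 were. Jak2 was at most at 0.125 FPKM. Of the 6 other STATs, 2 were tested at each time. Stat6, which mediates interleukin-4 signalling, was at 2.08, 2.03 and 1.94 FPKM in 240 h ctrl and 0.996, 1.07 and 0.968 FPKM in 240 h kd and fell by 0.93 (SE 0.0515, adjusted p = 0.000182), and its effect differed between 240 h and 48 h (log2 difference -0.96, adjusted p = 8.4e-05).

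Among 14 inhibitors, Pias3, a protein that binds Stat3 and inhibits it, was at 3.98, 3.65 and 3.91 FPKM in 48 h ctrl, 6.78, 8.13 and 7.35 FPKM in 48 h kd and 10.1, 9.43 and 9.8 FPKM in 72 h kd. It rose by 0.93 at 48 h (SE 0.0767, adjusted p = 0.00269) and by 1.32 at 72 h (SE 0.0452, adjusted p = 3.4e-05). At 240 h the difference was 0.32 (adjusted p = 0.0274), under the fold threshold, and the effect was smaller than at 48 h (log2 difference -0.61, adjusted p = 0.00616). Cish, a SOCS family member, was at 1.82, 1.59 and 1.59 FPKM in 48 h ctrl and 0.899, 0.959 and 0.935 FPKM in 48 h kd and fell by 0.78 (SE 0.0675, adjusted p = 0.0029). At 240 h it was 0.44 above ctrl (adjusted p = 0.00375, under the fold threshold), so that its effect differed between the times by 1.21 (SE 0.0898, adjusted p = 2.7e-05). The phosphatase gene Ptpn6 fell by 0.91 at 240 h (SE 0.0811, adjusted p = 0.00083), from 1.31 to 1.51 FPKM in ctrl to 0.645 to 0.763 FPKM in kd.

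The 15 other reported targets did not move one way, and 13 of them were tested at each time. Klf4, a pluripotency factor downstream of LIF, was at 88.4, 88.5 and 90.8 FPKM in 48 h ctrl, 49.6, 47.1 and 49.6 FPKM in 48 h kd and 51.5, 51.6 and 54.5 FPKM in 72 h kd. The 240 h libraries were at 80.6, 81.8 and 87.9 FPKM in ctrl and 38.6, 35.1 and 34.7 FPKM in kd. Klf4 fell at each time, by 0.87, 0.76 and 1.20 on the log2 scale (adjusted p = 0.000832, 5.7e-05 and 0.000124). Myc, which drives growth, was at 11.4, 11.1 and 11.7 FPKM in 48 h ctrl, 23.8, 23.4 and 25.2 FPKM in 48 h kd and 9.53, 9.88 and 11.3 FPKM in 72 h kd, and at 240 h at 13.6, 13.5 and 12.5 FPKM in ctrl and 23.5, 25.8 and 27.3 FPKM in kd. It rose at 48 h (1.07, adjusted p = 0.000832) and at 240 h (0.95, adjusted p = 0.000392) and was lower by 0.16 at 72 h (log2 fold change -0.16, adjusted p = 0.0979). Like Gbx2, Myc lay above ctrl in 48 h kd and 240 h kd and not in 72 h kd. The 240 h difference of Gbx2 was under the fold threshold, and the likeness of these genes was not tested.

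Ccnd1, which encodes cyclin D1, fell by 1.23 at 72 h (adjusted p = 2.3e-05) and by 1.18 at 240 h (adjusted p = 0.000171), from 24.8 to 28.3 FPKM over the ctrl libraries to 10.8 to 12.1 FPKM in the later kd libraries. Pim2, the third Pim kinase, was at 3.14, 3.11 and 2.66 FPKM in 240 h ctrl and 6.66, 7.81 and 7.91 FPKM in 240 h kd. It rose by 1.30 at 240 h (SE 0.0948, adjusted p = 0.000438), and its difference was -0.34 at 48 h (adjusted p = 0.0119, under the fold threshold) and -0.06 at 72 h (adjusted p = 0.411). At 240 h the 3 Pim kinases were thus called in different directions, Pim1 and Pim2 higher and Pim3 lower. At 72 h, the immediate early gene Fos rose by 1.55 (SE 0.118, adjusted p = 0.000264) and the survival gene Mcl1 by 0.63 (SE 0.0376, adjusted p = 0.000132), and Ier3 fell by 0.65 (SE 0.0535, adjusted p = 0.00034). Fos was also 1.70 higher in 72 h kd than in 48 h kd (SE 0.0799, adjusted p = 0.00058).

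**Figure D3:**
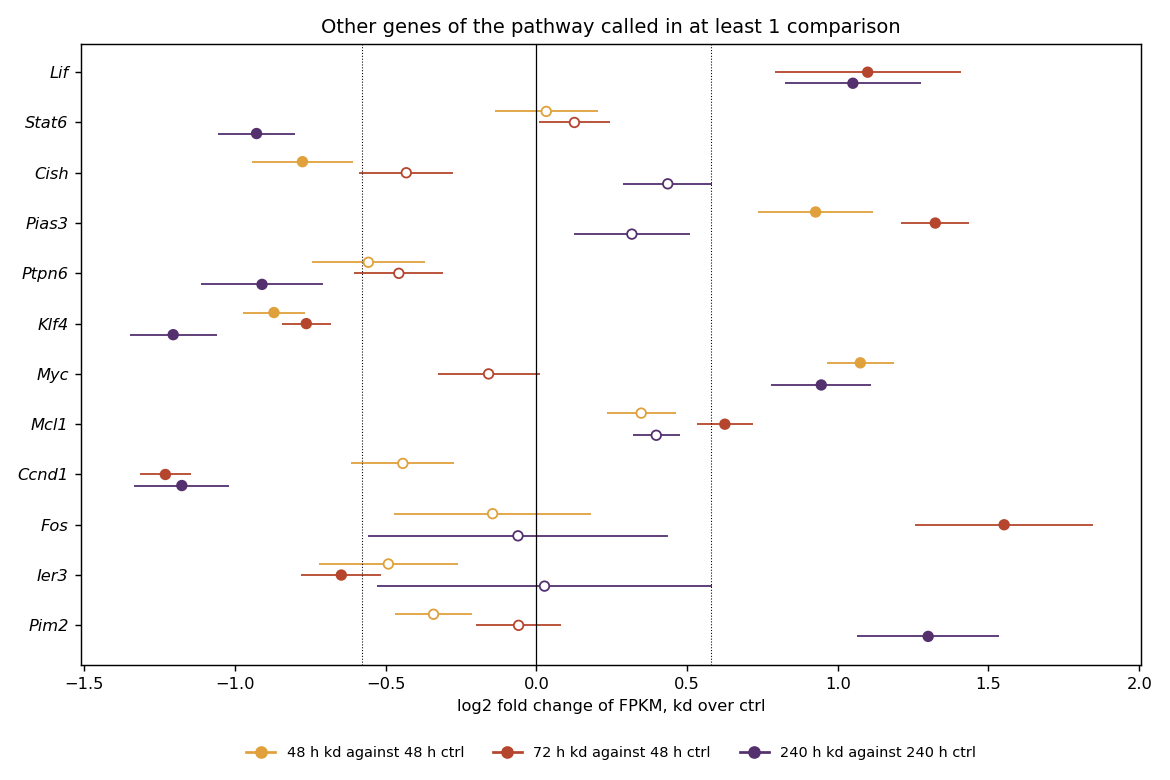
Log2 fold change of FPKM in the 3 comparisons of kd with ctrl (colours) for the 12 other genes of the pathway called in at least 1 of them. Lines are 95% confidence intervals from limma, filled points passed the adjusted p and the fold threshold, and dotted lines mark that threshold. Lif has no point at 48 h, where it was under the FPKM minimum, and passed that minimum at 72 h and 240 h only through the kd groups. Klf4 lies left of the threshold each time, and at 240 h Pim2 lies furthest right (1.30).

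The genes most like each called member over the 15 libraries were found by Pearson's r of log2(FPKM + 0.1) among the 7310 genes that averaged 1 FPKM or more. The libraries fall into 5 groups, so these values describe shared group patterns, and they carry no test. Pim1 was followed most closely by Scpep1 (r = 0.994), Ifrd2 (0.991) and Scpep1os (0.99), the last of which is the antisense partner of Scpep1. Strand was not used, so reads where they overlap would count for both, and Scpep1os may not be a separate match. Il6st was followed by Tnfrsf22 (0.985), Mex3a (0.983) and Six4 (0.976), and Six4 went from 3.72 FPKM in 48 h ctrl to 10 FPKM in 72 h kd. Bcl3 was followed by Folr1 (0.987), Slc25a4 (0.985) and Igf2bp1 (0.981), and Folr1 stood at 1.35 FPKM in 240 h ctrl and 4.7 FPKM in 240 h kd. Pim3 was followed by Btbd2 (0.981), Idh3a (0.981) and Pcdhgc3 (0.974). For Gbx2, the likeness was lower, with Srr (0.938), Rexo2 (0.931) and Qtrt2 (0.9).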

How the data were processed

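RNA-seq had been performed on 15 libraries (5 groups of 3, from the labels). The authors aligned the reads to mm10 with STAR 2.7.0c, counted them per gene with GenomicRanges and Rsamtools, and deposited FPKM. The annotation used for counting is not given in the sources used here. The deposited FPKM turned out to be whole reads (tolerance 0.001) divided by the whole gene span and the library's total, without regard to strand, and reads in overlapping genes counted more than once, since the sum over genes passed the total by 7.38% to 8.34%. Introns therefore enter the level, and long genes such as Jak1 have low FPKM.

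Values were taken as log2(FPKM + 0.1), genes that averaged 0.5 FPKM or more over the compared libraries were kept, and limma 3.58.1 (R 4.3.3, moderated test with a trend, Benjamini-Hochberg over all genes tested, two-sided) was fitted to the groups of each comparison. The thresholds of an adjusted p of 0.05 and an absolute log2 fold change of 0.58 follow the study's methods. The deposited unit is FPKM, and limma on it was the main fit in place of the study's count model. As an alternative, voom was run on the recovered reads. All scripts that fit many genes were tested on simulated data. Exon lengths came from GENCODE M21, which matched 53297 of the 55228 genes (96.5%), and promoter windows from RefSeq.

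The 9 genes, the lists of other pathway genes and the markers were chosen with earlier results of these data known, and 1 marker is not reported here. Named by rule are the 9 genes, Smarcb1, the listed pathway genes called in at least 1 comparison of kd with ctrl, and the 3 genes most like each called member, leaving out overlapping and predicted genes. Markers, genes that overlap the 9 and some uncalled listed genes are also named, outside this rule. Alternatives of scale, filter, pseudocount, replicates and model were run, and taking away the reads of genes that share at least 100 bases was chosen after seeing the data.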

Additional observations from a re-analysis of the deposited data

Results flagged for a closer look

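The kd effect (log2 kd over ctrl) differed between 240 h and 48 h for 5 of the 9 genes. This was by the interaction term of limma at an adjusted p under 0.05, which 15.6% of the 11412 genes tested passed. The effect at 240 h minus the effect at 48 h was -0.84 for Pim3, -0.51 for Lifr, -0.47 for Socs3, -0.35 for Stat3 and 0.58 for Bcl3. Of these, Pim3 also passed the fold threshold, as did 5.82% of all genes tested. For Socs3 the kd libraries were all above ctrl at 48 h and all below ctrl at 240 h, and the same held for Stat3.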

How the results depend on the processing

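Of 1183 alternative values for the 9 genes, 1104 kept their direction and their side of the thresholds, 8 lost a call, 52 gained one and 19 changed sign, all of them uncalled. The gained calls include those made by dropping the fold threshold, where the value itself did not change. Without a fold threshold, 6 of the 9 genes were called at 48 h, 7 at 72 h, 8 at 240 h, 1 between the ctrl groups, 6 for 72 h kd against 48 h kd, 7 for 240 h kd against 72 h kd and 5 for the difference of effects, against 16.1%, 55%, 33.8%, 3.44%, 35.5%, 59.5% and 15.6% of all genes tested. Under TPM scaling 1 was called at 48 h, beside 439 of the 11420 genes tested. For the difference of effects, 2 were called with a pseudocount of 0.01, TPM scaling, median centring or voom, beside 730, 640, 664 and 1708 of all genes. When a library was left out, 1 to 2 were called, beside 586 to 691 of all genes. The added gene was Bcl3. With a minimum of 2 FPKM, Lifr and Jak1 were not tested.

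Signs turned for Lifr at 72 h under quantile normalization (-0.0307) and against 240 h ctrl (-0.0397); between the ctrl groups under TPM scaling for Jak1 (0.0546), Pim1 (0.00779) and Bcl3 (0.0916), and for Bcl3 with the reads of overlapping genes taken away (0.000171); from 48 h to 72 h kd for Socs3 under TPM scaling (0.0538) and quantile normalization (0.0367) and for Bcl3 under TPM scaling (0.0584); and from 72 h to 240 h kd for Stat3 under TPM scaling (0.0605). Leaving out 1 library gave -0.012 to 0.0596 for Lifr at 72 h, -0.0781 to 0.00249 for Jak1 and -0.0372 to 0.016 for Bcl3 between the ctrl groups, -0.0511 to 0.0201 for Socs3 and -0.0209 to 0.0119 for Bcl3 from 48 h to 72 h kd, and -0.0383 to 0.00608 for Stat3 from 72 h to 240 h kd. The cause was not tested.

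Deviations of same-numbered libraries correlated weakly (-0.0993 to 0.119). With 3 libraries a group, this cannot decide whether equal numbers mark libraries handled together. Between the ctrl groups each library was matched best by the one of its own number (0.0766, 0.0235 and 0.075). With the replicate block, 3 of the 9 genes were called at 48 h, 2 at 72 h and 3 at 240 h, as without it, and no call on the 9 genes changed, while calls over all genes at 48 h went from 456 to 285 and between the ctrl groups from 54 to 0. Over all genes, voom on the recovered reads (at least 10 on average) called 1485, 3642 and 2998 at 48 h, 72 h and 240 h, beside 456, 1548 and 1016, a pseudocount of 1 called 208, 745 and 541, and no FPKM minimum 642, 2500 and 1768. Among the kd groups and ctrl groups, voom called 2101 beside 857, 4201 beside 1803 and 220 beside 54, and 1708 beside 664 for the difference of effects. TPM scaling called 151 between the ctrl groups. A minimum of 2 FPKM called 208, 768 and 453, and no fold threshold 1844, 6290 and 3848. With 3 libraries a group, small differences such as those of Stat3 rest on little replication.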
